A study of Mus musculus with 6 samples.

Results

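The 10 genes studied here encode amino acid transporters of the plasma membrane and were taken by gene symbol from the 49671 genes in the deposited tables. They are Slc7a5, Slc3a2, Slc1a5, Slc1a4, Slc7a1, Slc7a6, Slc7a11, Slc38a1, Slc38a2 and Slc43a1, and all 10 of 10 were found in both tables. RNA came from splenic CD3+ T cells of female F1 hybrid mice, with 3 libraries from cells taken without stimulation and 3 from cells stimulated for 48 h with 1 µg/ml plate-bound antibody to CD3 and 10 µg/ml soluble antibody to CD28. In both groups the mothers were C57BL/6 mice (mus) with a deletion of Xist, the silencer of the inactive X, on 1 of their X chromosomes, and the fathers were M. m. castaneus (cast). The age of the mice and any pooling of animals are not stated in the sources used here, and the labels name the 3 libraries of a group as biological replicates.

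Unstimulated cells went straight into lysis reagent, whereas stimulated cells were kept in culture with added nonessential amino acids and β-mercaptoethanol. Stimulation and culture therefore cannot be told apart in any comparison of these groups. All 13 T cell markers checked reached 1 RPKM (a gene's reads divided by its length in kilobases, per 1000000 reads) in every stimulated library, and their summed level was 1003 to 1220 RPKM in the unstimulated and 1093 to 1157 RPKM in the stimulated libraries. Within that sum the markers moved in opposite directions, with 3 called higher (Cd2, Cd5 and Cd6), 6 lower (among them Cd3g, Cd3e and Cd4) and 4 not past limma's test. Marker sums of B, NK, myeloid and erythroid cells were much higher without stimulation. The summed level of 12 myeloid markers was 1286, 1685 and 3589 RPKM in unstimulated replicates 1, 2 and 3, and 9.63 to 15.6 RPKM in the stimulated libraries. Erythroid and platelet markers, 9 in all, summed to 82.7, 828 and 1342 RPKM without stimulation and to 2.32 to 15.4 RPKM with it. B cell markers summed to 869 to 1317 RPKM without and 78.2 to 146 RPKM with stimulation, and NK cell markers to 259 to 360 and 10.6 to 15.9 RPKM. Adgre1, a macrophage marker, was listed at 0 in all stimulated libraries. All 11 B cell markers, all 12 myeloid markers and all 7 NK cell markers were lower in the stimulated group in limma's test, and so were 7 of the 8 erythroid and platelet markers tested. Part of these, 8 of the 12 myeloid markers among them, entered the test through their unstimulated libraries alone, being under 1 RPKM in every stimulated one. Plasma cell markers went both ways, as Jchain (185 to 0.0879 RPKM) and Mzb1 (18.1 to 6.53) fell, Xbp1 rose (23.6 to 49.2) and Sdc1 did not pass (2.43 and 2.15). The part that these cells play in the transporter results was not tested, and in bulk RNA fewer cells of a type and less RNA per cell cannot be told apart.

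Amino acids do not cross the plasma membrane unaided, and a T cell that grows and divides takes up far more of them than a resting cell. Slc3a2, also called CD98 heavy chain, carries several light chains of the Slc7 family to the cell surface, where each pair exchanges amino acids across the membrane. Slc7a5 (LAT1) is the light chain that brings in leucine and other large neutral amino acids, and T cells that lack it fail to expand after antigen stimulation. Other families work without a heavy chain: Slc1a5 and Slc1a4 exchange small neutral amino acids, Slc7a1 takes up arginine and lysine, and Slc38a1 and Slc38a2 import glutamine and alanine with sodium. Amino acid shortage is known to raise several of these genes through the kinase GCN2 and the transcription factor ATF4, and Myc is known to act on Slc7a5 and Slc1a5.

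Promoter stretches of 4 members are shown because 2 of them hold the same motif and part in the expression test. Stretches run from 150 bases before to 5 bases after the RefSeq start (GRCm38.p6), 5′ to 3′ on the gene's strand, and capitals mark a motif match. Slc1a4 and Slc7a11 hold the motif TGATGNAA or its reverse complement TTNCATCA, which ATF4 with a C/EBP partner is known to bind, Slc43a1 holds the E-box CACGTG, which Myc with Max is known to bind, and Slc3a2 holds neither.
Slc1a4, chr11:20332709-20332863, minus strand: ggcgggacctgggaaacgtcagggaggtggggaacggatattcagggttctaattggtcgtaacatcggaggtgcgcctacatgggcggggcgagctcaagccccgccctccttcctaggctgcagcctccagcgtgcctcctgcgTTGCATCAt
Slc7a11, chr3:50443609-50443763, minus strand: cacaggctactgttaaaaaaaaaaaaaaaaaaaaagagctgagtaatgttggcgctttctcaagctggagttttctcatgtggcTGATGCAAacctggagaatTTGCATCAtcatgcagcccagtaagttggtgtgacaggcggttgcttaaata
Slc43a1, chr2:84840173-84840327, plus strand: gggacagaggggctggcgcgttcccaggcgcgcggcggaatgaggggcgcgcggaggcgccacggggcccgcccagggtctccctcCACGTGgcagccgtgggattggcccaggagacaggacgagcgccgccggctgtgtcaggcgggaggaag
Slc3a2, chr19:8713893-8714047, minus strand: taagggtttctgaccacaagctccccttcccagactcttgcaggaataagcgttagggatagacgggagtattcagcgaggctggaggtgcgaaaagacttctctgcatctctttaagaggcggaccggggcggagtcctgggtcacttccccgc
Promoter windows of 300 bases were at hand for 7 of the 10 members (Slc3a2, Slc1a4, Slc7a1, Slc7a6, Slc7a11, Slc38a2 and Slc43a1). Slc7a1 and Slc7a6 had more than 1 window each, so the counts of members below are not the same measure as the shares of all windows. Both strands were searched. The starts used for Slc3a2 and Slc43a1 lie inside the gene spans given below, and the upstream ends of those spans were not searched. The ATF4 motif was in windows of 2 of the 7, with its first base at position -4 from the start in Slc1a4 and at -66 and -47 in Slc7a11, and in 3.97% of 32851 windows of this length across the genome. The E-box, which reads the same on both strands, was in 1 of the 7, at -64 in Slc43a1, and in 7.15% of all windows. Of these 4 genes, Slc1a4 and Slc3a2 rose with stimulation, and Slc7a11 and Slc43a1 did not pass the test (values below). A match is a string of letters, not a binding site.

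Of the members, 7 of 10 members were higher in stimulated cells, 0 were lower, and 3 did not pass the test. Expression of both alleles together was compared on log2(RPKM + 1) with limma over the 13288 genes that reached 1 RPKM in at least 3 libraries. A call needed a Benjamini-Hochberg adjusted p under 0.05, and a log2 change on this scale understates the change of genes with low RPKM. Among all genes tested, 31.2% were called higher and 48.9% lower. The median log2 change was 1.13 over the members and -0.24 over all genes tested. All 10 members passed the filter on low values, Slc1a4 through its stimulated libraries alone and Slc43a1 through its unstimulated libraries alone. Centring each library on its median moved the median of all genes to 0.02 and the calls to 5432 higher and 5206 lower, from 4148 and 6494, and quantile normalisation gave 0.04, 5394 and 4878. The member counts were 7 higher and 0 lower under both.

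**Figure D1:**
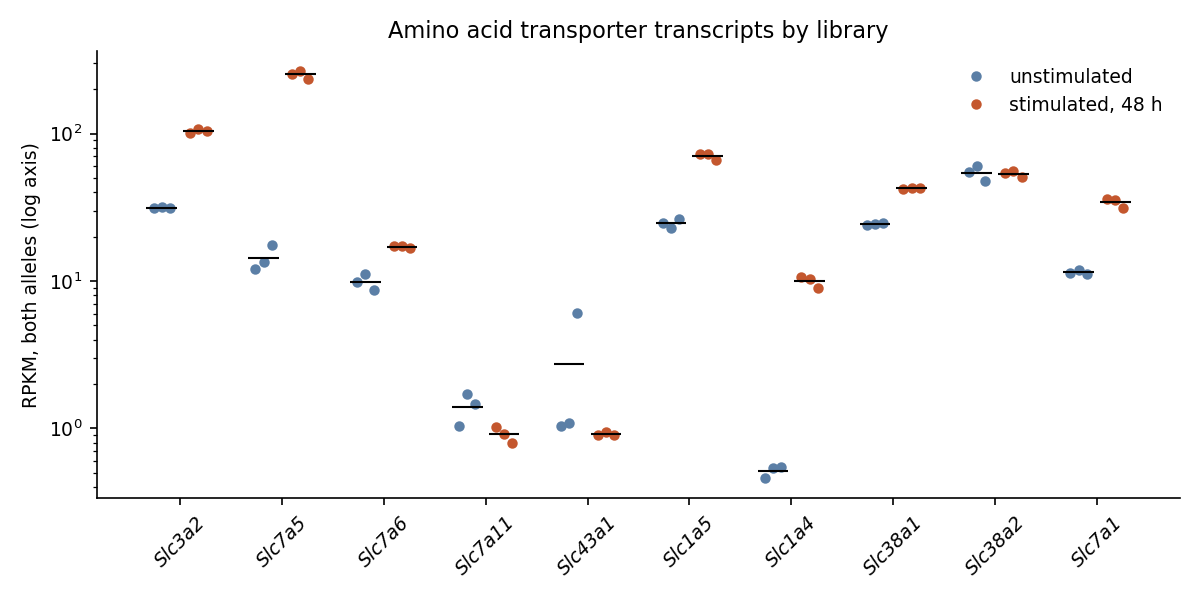
Level of each of the 10 transporter genes in RPKM (log axis) in the 3 unstimulated and 3 stimulated libraries, with points for libraries and short lines for group means. Slc7a5 and Slc1a4 show the widest gaps between groups, Slc38a2 and Slc43a1 overlap or nearly touch, and unstimulated replicate 3 stands apart for Slc43a1 at 6.07 RPKM.

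The leucine transporter pair rose with unequal steps. Slc7a5 (ENSMUSG00000040010, mm10 chr8:121881150-121907694, minus strand, protein-coding like every member) stood at 12.1, 13.5 and 17.5 RPKM in the unstimulated libraries and at 255.2, 265 and 236 RPKM in the stimulated ones. Every stimulated library lay far above every unstimulated library. Its mean went from 14.4 ± 2.76 to 252 ± 15.1 RPKM (SD, n = 3 each), which is 17.5-fold, with a log2 change of 4.05 ± 0.13 (SE) and an adjusted p of 1.2e-06 in limma. The annotated gene Gm20388 overlaps Slc7a5 on the opposite strand and was listed at 0 RPKM in all 6 libraries. The heavy chain Slc3a2 (ENSMUSG00000010095, chr19:8706882-8723369, minus strand) read 31.2, 31.6 and 31.1 RPKM without stimulation, a range of less than 1 RPKM, and 100.2, 107 and 103.7 RPKM with it. Its mean went from 31.3 ± 0.265 to 103.8 ± 3.57 RPKM, 3.31-fold, with a log2 change of 1.70 ± 0.05 and an adjusted p of 9.9e-07 in limma.

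Because the light chain rose more than the heavy chain, the order of the pair turned over. The ratio of Slc7a5 to Slc3a2 RPKM was 0.389, 0.428 and 0.561 without stimulation and 2.55, 2.47 and 2.27 with it. The groups did not overlap, and the mean ratio went from 0.459 ± 0.0904 to 2.43 ± 0.142 (SD, n = 3 each). The difference of 1.97 in this ratio had an exact two-sided permutation p of 0.1, the smallest that 3 libraries against 3 allow. Slc3a2 also serves the light chains Slc7a6, Slc7a7, Slc7a8, Slc7a10 and Slc7a11. The sum of all 6 light chains over Slc3a2 was 0.830, 0.922 and 1.02 without stimulation and 2.74, 2.64 and 2.45 with it, and the exact permutation p was again 0.1.

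The remaining light chains did not share the rise of Slc7a5 in size. Slc7a6 (y+LAT2, ENSMUSG00000031904, chr8:106168857-106198706, plus strand), which exchanges cationic for neutral amino acids, stood at 9.84, 11.1 and 8.62 RPKM and then at 17.3, 17.2 and 16.6 RPKM. It rose 1.73-fold, from 9.84 ± 1.23 to 17.0 ± 0.365 RPKM, with a log2 change of 0.74 ± 0.09 and an adjusted p of 0.00028 in limma. Slc7a7 and Slc7a8, light chains that are not among the 10 members, were called lower, with log2 changes of -0.68 (adjusted p 0.0086 in limma) and -1.001 (adjusted p 0.00012 in limma). Both were under 1 RPKM in every stimulated library and entered the test through the unstimulated group alone. Slc7a8 went from 1.34 ± 0.196 to 0.168 ± 0.0785 RPKM. Slc7a10 was below the filter, at a mean of 0.293 RPKM without stimulation, and listed at 0 in all stimulated libraries.

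Slc7a11 (xCT, ENSMUSG00000027737, chr3:49892526-50443614, minus strand) brings in cystine in exchange for glutamate, and did not pass the test. It stood at 1.04, 1.70 and 1.47 RPKM in the unstimulated and at 1.03, 0.918 and 0.794 RPKM in the stimulated libraries. The groups only just failed to touch, and the lowest unstimulated value was replicate 1. Its log2 change was -0.32 ± 0.13 with an adjusted p of 0.051 in limma. Without unstimulated replicate 1 it was called lower, at -0.43 with an adjusted p of 0.0099, and quantile normalisation gave 0.36 with an adjusted p of 0.054. The direction of Slc7a11 thus turned with the scaling. Its span also holds the annotated gene Gm37498, at 0.0933 to 0.285 RPKM, and whether reads were counted by strand is not stated in the sources used here.

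Both members of the Slc1 family rose. Slc1a4 (ASCT1, ENSMUSG00000020142, chr11:20302180-20332713, minus strand) exchanges alanine, serine and cysteine. It read 0.459, 0.540 and 0.542 RPKM without stimulation and 10.7, 10.3 and 8.96 RPKM with it. From a level below the filter its mean rose 19.4-fold, from 0.514 ± 0.0475 to 9.96 ± 0.895 RPKM, with a log2 change of 2.85 ± 0.09 and an adjusted p of 1.2e-06 in limma. Slc1a5 (ASCT2, ENSMUSG00000001918, chr7:16781340-16798274, plus strand), a sodium-dependent exchanger whose substrates include glutamine, read 24.8, 23.0 and 26.4 RPKM and then 73.1, 72.6 and 66.3 RPKM. It started about as high as Slc38a1 and rose 2.86-fold, to 70.7 ± 3.78 RPKM, with a log2 change of 1.48 ± 0.07 and an adjusted p of 4.9e-06 in limma. The Slc1a5 values of the 2 groups were far apart.

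The arginine and lysine transporter Slc7a1 (CAT-1, ENSMUSG00000041313, chr5:148327410-148399904, minus strand) rose 3.00-fold. Its values were 11.3, 11.8 and 11.1 RPKM without stimulation and 35.8, 35.4 and 31.4 RPKM with it. The mean went from 11.4 ± 0.388 to 34.2 ± 2.47 RPKM, with a log2 change of 1.503 ± 0.07 and an adjusted p of 4.1e-06 in limma. Slc7a3, another carrier of cationic amino acids that is not a member, is X-linked and went from 0.108 ± 0.0100 to 13.995 ± 0.544 RPKM, a log2 change of 3.76 with an adjusted p of 3.7e-07 in limma. Of the Slc7a3 reads assigned to an allele in the stimulated libraries, cast reads were 0 of 640, 0 of 787 and 4 of 790. Taken as 3 counts of the total, a count of 0 allows cast shares of up to 0.469% and 0.381% in stimulated replicates 1 and 2, and the upper bounds of the 95% exact interval were 0.575% and 0.468%. In replicate 3 the share was 0.506% (95% exact interval 0.138% to 1.29%). Reads of Xist, the silencer of the inactive X, were 99.92% to 99.99% cast in the 6 libraries. The shares of X-linked Slc7a3 are therefore not read as a bias of that gene.

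The sodium-coupled transporters of the Slc38 family parted. Slc38a1 (SNAT1, ENSMUSG00000023169, chr15:96571418-96642913, minus strand) read 24.0, 24.4 and 24.6 RPKM without stimulation and 42.0, 42.9 and 42.4 RPKM with it. Both groups were tight, and it rose 1.74-fold with a log2 change of 0.78 ± 0.05 and an adjusted p of 1.0e-05 in limma. Slc38a2 (SNAT2, ENSMUSG00000022462, chr15:96687392-96699730, minus strand) lies next to it on the chromosome. It read 55.0, 60.3 and 47.4 RPKM without stimulation and 54.2, 55.4 and 50.6 RPKM with it, so the groups overlapped. The log2 change of Slc38a2 was -0.02 ± 0.09 with an adjusted p of 0.885 in limma. On the reads assigned to the alleles, summed per library, it was called higher instead, at 0.42 with an adjusted p of 0.0056 in edgeR and 0.39 with an adjusted p of 0.0012 in DESeq2. With median centring of the RPKM values its log2 change was 0.25 (adjusted p 0.11 in limma). Quantile normalisation gave -0.12 (adjusted p 0.362 in limma). Every member had a higher log2 change on the summed allelic counts in edgeR than on RPKM, so the shift was not particular to Slc38a2. Slc38a1 had 1.25 beside 0.78, and Slc3a2 had 2.15 beside 1.70. The cause of the difference between RPKM and allelic counts was not tested.

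Slc43a1 (LAT3, ENSMUSG00000027075, chr2:84838850-84863594, plus strand), which carries large neutral amino acids without a heavy chain, read 1.04, 1.08 and 6.07 RPKM without stimulation and 0.903, 0.943 and 0.902 RPKM with it. Unstimulated replicate 3, the library with the highest myeloid and erythroid marker sums, was alone in its high value. The log2 change was -0.70 ± 0.47 (adjusted p 0.209 in limma), and without that library it was -0.10 (adjusted p 0.22). Slc38a5, a glutamine transporter outside the members, had its highest value in the same library, at 1.36, 2.42 and 10.4 RPKM, and was listed at 0 in the 3 stimulated libraries.

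The members changed rank as well as level. RPKM is per length of gene, so levels are set side by side between genes. The gene lengths used are not stated in the sources used here, and orders, shares and ratios between genes rest on them. In unstimulated cells the order from the top was Slc38a2, Slc3a2, Slc1a5 and Slc38a1, Slc7a5, Slc7a1, Slc7a6, Slc43a1 and Slc7a11, and Slc1a4. The library values of Slc1a5 and Slc38a1 overlapped, as did those of Slc43a1 and Slc7a11, so neither pair has an order. In stimulated cells the order was Slc7a5, Slc3a2, Slc1a5, Slc38a2, Slc38a1, Slc7a1, Slc7a6, Slc1a4, and then Slc43a1 and Slc7a11, whose values overlapped. The RPKM of the 10 genes summed to 171, 179 and 175 in the unstimulated and 591, 608 and 557 in the stimulated libraries, a 3.35-fold rise of the mean.

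Slc7a5 took most of the added RPKM. It made up 8.21% ± 1.55 of the summed RPKM without stimulation and 43.0% ± 0.685 with it (SD, n = 3 each). Slc38a2, the most abundant member in unstimulated cells, went from 31.0% ± 3.43 to 9.13% ± 0.0519. Slc38a1 went from 13.9% ± 0.273 to 7.26% ± 0.305 although its RPKM rose. The share of Slc3a2 was 17.9% ± 0.317 and 17.75% ± 0.824, so the heavy chain kept pace with the sum. Shares of a whole are tied to each other and were not tested.

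**Figure D2:**
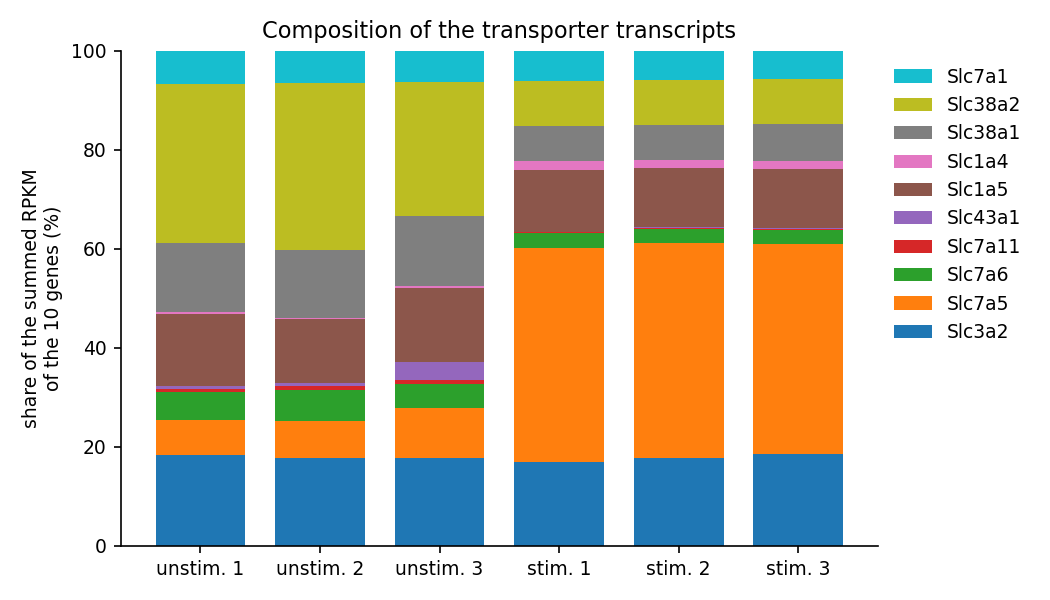
Share of each member in the summed RPKM of the 10 transporter genes, in percent, as 1 stacked bar per library. Slc7a5 goes from a mean of 8.21% in the unstimulated to 43.0% in the stimulated libraries, and Slc38a2 from 31.0% to 9.13%.

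The genes most like Slc7a5 and Slc3a2 in their profile over the 6 libraries were different sets. Likeness was the Euclidean distance between centred log2(RPKM + 1) values among 13287 other genes. With 6 libraries in 2 groups it reads mainly the size of the step on that scale, which shrinks the steps of genes with low RPKM. On RPKM itself Slc7a5 rose 17.5-fold and Slc1a4 19.4-fold, and Cth went from 0.118 to 18.5 RPKM, so the ranks below rest on the scale. Nearest to Slc7a5 were Pgk1 (0.287), a glycolytic enzyme, Psat1 (0.326), an enzyme of serine synthesis, and Cth (0.332), an enzyme that makes cysteine. The member nearest to Slc7a5 was Slc1a4, at rank 113, and its partner Slc3a2 came at rank 615. Nearest to Slc3a2 were Ptgfrn (0.0863), Gfi1 (0.0920), a transcriptional repressor, and Manf (0.104), a protein of the endoplasmic reticulum. Among members, Slc7a1 was at rank 110 and Slc1a5 at rank 157 for Slc3a2.

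Reads that could be assigned to the mus or cast allele showed whether both copies of a gene took part. In units of M (1000000 reads), the libraries held 11.9, 9.61 and 11.7 M such reads without stimulation and 14.9, 18.04 and 20.2 M with it, and the cast share over autosomal genes was 49.3% to 49.4% in each. All 10 members are autosomal. With edgeR's quasi-likelihood test, 8 of 10 members were called higher on the mus allele and 8 of 10 on the cast allele, beside 29.1% and 29.4% of all genes tested on each. The log2 changes of the mus and cast alleles were 4.37 and 4.71 for Slc7a5, 2.16 and 2.14 for Slc3a2, and 4.38 and 4.93 for Slc1a4. Slc38a2 was the member called here but not on RPKM, at 0.35 (adjusted p 0.029 in edgeR) on mus and 0.52 (adjusted p 0.00075 in edgeR) on cast. Its mus call was lost without stimulated replicate 1 (adjusted p 0.0545) or replicate 2 (0.0864), and with library sizes in place of TMM scaling (0.10, adjusted p 0.487). Slc7a11 and Slc43a1 were not called on either allele. Without unstimulated replicate 2, Slc7a11 was called higher on the mus allele, at 0.87 (adjusted p 0.012 in edgeR) in place of 0.37 (0.325).

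Slc1a5 had an uneven start and an even end. Its cast share, the percent of allelic reads from the cast copy, was 32.7%, 37.3% and 35.3% in the unstimulated and 50.8%, 52.3% and 50.9% in the stimulated libraries. The 95% exact Clopper-Pearson intervals of single libraries, which cover counting error only, lay between 30.8% and 39.5% without stimulation and between 49.8% and 53.2% with it. The mean went from 35.1% ± 2.28 to 51.3% ± 0.873 (SD, n = 3 each), or 16.2 percentage points higher. In allelic RPM (reads of an allele per 1000000 allelic reads of the library), the mus allele went from 127.5 ± 9.64 to 311 ± 23.1, 2.44-fold, and the cast allele from 68.8 ± 3.07 to 328 ± 26.4, 4.77-fold. The change of the log2 ratio of cast to mus was 0.97, with an adjusted p of 6.4e-07 in edgeR's test of the interaction of allele and stimulation. By that p Slc1a5 ranked 37th of 12834 genes tested, and by the size of the change 1683rd.

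The same interaction test called 3 of the 10 members (Slc1a5, Slc7a1 and Slc7a5), beside 10.2% of all genes tested. Slc7a1 went the other way from Slc1a5. Its cast share was 57.2%, 57.9% and 57.5% without stimulation and 50.3%, 49.9% and 49.9% with it, a mean of 57.5% ± 0.370 against 50.03% ± 0.200. The mus allele went from 122.5 ± 7.94 to 481 ± 37.2 allelic RPM, 3.93-fold, and the cast allele from 166 ± 11.0 to 482 ± 39.7, 2.90-fold. The change of the log2 ratio of Slc7a1 was -0.44 (adjusted p 3.5e-05 in edgeR). Both alleles of Slc7a1 reached nearly the same level in stimulated cells.

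Slc7a5 moved toward cast. Its cast share was 46.6%, 52.1% and 46.8% in unstimulated libraries of 766 to 1200 reads each, and 53.8%, 54.3% and 54.3% in stimulated libraries of 25124 to 31639 reads. Unstimulated replicate 2 was closest to the stimulated libraries, and the groups did not overlap. The change of the log2 ratio was 0.33 (adjusted p 0.0058 in edgeR). In allelic RPM, which has no TMM scaling, the mus allele rose 17.4-fold and the cast allele 21.9-fold. The log2 changes of these alleles given above (4.37 and 4.71) are with TMM scaling.

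**Figure D3:**
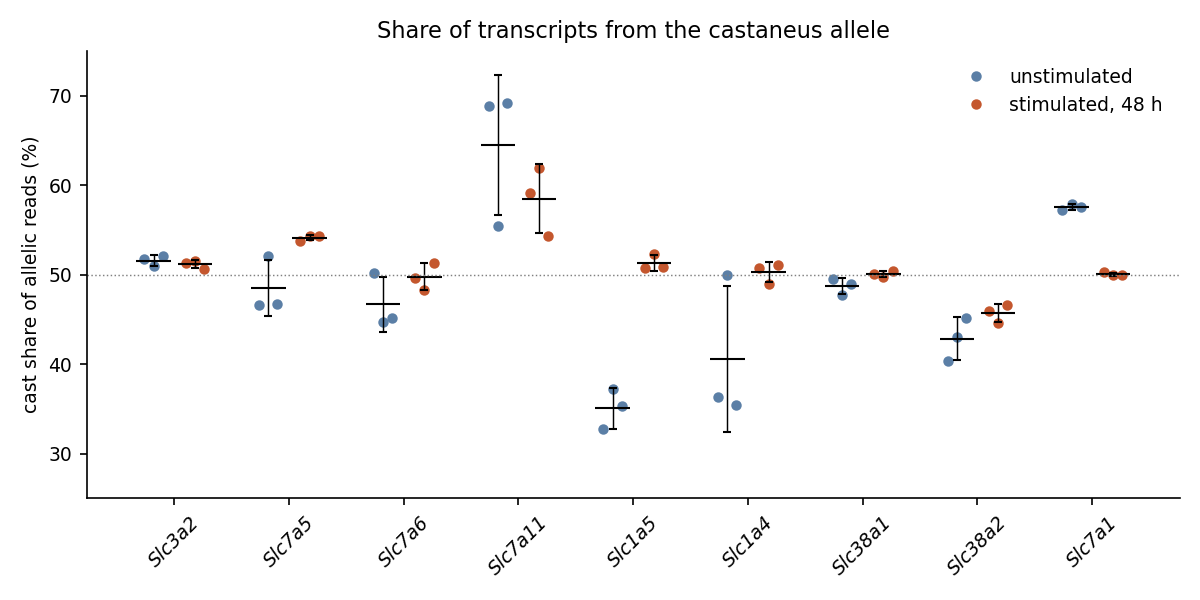
Cast share in percent of allelic reads for 9 members in the unstimulated and stimulated libraries, with points for libraries, and means with SD bars. Slc43a1 is left out for its 8 to 39 reads per library. Slc1a5 climbs from a mean of 35.1% to 51.3%, and Slc7a1 comes down from 57.5% to 50.03%.

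Of the 7 members that did not pass this test, Slc3a2 and Slc38a1 had the tightest shares. Slc3a2 went from 51.6% ± 0.587 to 51.2% ± 0.475 (log2 ratio change -0.02, adjusted p 0.867 in edgeR), and Slc38a1 from 48.7% ± 0.908 to 50.05% ± 0.344 (0.08, adjusted p 0.458 in edgeR). Slc1a4 went from 40.6% ± 8.14 to 50.3% ± 1.15 (0.57, adjusted p 0.161 in edgeR). Its unstimulated libraries held 44 to 62 reads each. The log2 ratio change of Slc1a4 was 0.85 (adjusted p 0.053 in edgeR) without unstimulated replicate 2 and 0.38 without replicate 3. Slc7a6 and Slc38a2 had log2 ratio changes of 0.18 and 0.17, and Slc7a11 of -0.36. Each moved when single libraries were left out. Without unstimulated replicate 1 they were 0.28 for Slc7a6, 0.096 for Slc38a2 and -0.22 for Slc7a11, and for Slc7a11 -0.66 without unstimulated replicate 2, -0.21 without replicate 3 and -0.23 without stimulated replicate 3. Slc7a6, Slc38a2 and Slc7a11 did not pass in any of these. Slc43a1 had 0 cast reads of 8 in stimulated replicate 2, which as 3 counts of the total allows a share of up to 37.5%, and 22 of 30 (73.3%) in replicate 1.

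Compared within each group, the alleles of 4 members differed in unstimulated cells and of 2 in stimulated cells. These counts stand beside 32.6% and 37.6% of all genes tested. In unstimulated cells the log2 ratio of cast to mus was -0.89 for Slc1a5 (adjusted p 4.7e-09 in edgeR), 0.44 for Slc7a1 (1.8e-07), -0.42 for Slc38a2 (2.1e-05) and 0.85 for Slc7a11 (0.0044). In stimulated cells it was 0.24 for Slc7a5 (adjusted p 0.00045 in edgeR) and -0.25 for Slc38a2 (0.0014). Slc38a2 was thus called lower on the cast allele in both states. Its cast share was 42.9% ± 2.36 and 45.7% ± 1.03. Slc7a11, at 0.49 with an adjusted p of 0.0517 in stimulated cells, missed the threshold there, and passed it without unstimulated replicate 1 (0.0493) or replicate 2 (0.031), which enter the spread of the fit. Without unstimulated replicate 2, Slc1a4 (-0.84, adjusted p 0.017 in edgeR) and Slc7a5 (-0.19, adjusted p 0.014) were also called lower on cast in unstimulated cells.

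**Figure D4:**
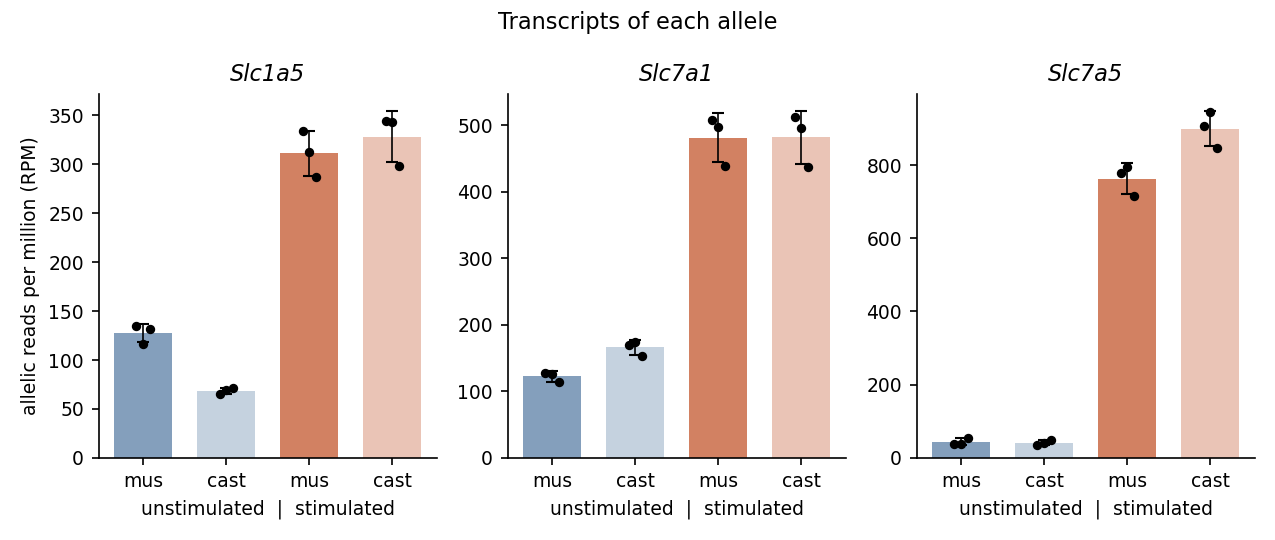
Level in allelic RPM (reads per 1000000 allelic reads) from the mus and cast alleles of Slc1a5, Slc7a1 and Slc7a5, with bars for means from 0, error bars for SD and points for the 3 libraries of each group. The alleles of Slc1a5 (127.5 and 68.8) and Slc7a1 (122.5 and 166) differ without stimulation and come close with it, and those of Slc7a5 are 763 and 899.7 in stimulated cells.

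Genes around these transporters were taken from 6 lists chosen by function, and each count is read against the 31.2% higher and 48.9% lower of all genes. Of 35 other plasma membrane amino acid transporters, 12 could be tested, and 3 rose, 7 fell and 2 did not pass, with a median log2 change of -0.81. Of the 7 that fell, 6 were under 1 RPKM in every stimulated library and so entered the test through the unstimulated group alone, and Slc7a3 entered it through the stimulated group alone, so the filter shapes this count and median. Slc6a19, a carrier of neutral amino acids, fell from 10.1 ± 2.13 to 0.675 ± 0.0480 RPKM (log2 change -2.71). Slc6a9, a glycine carrier, read 0.434, 0.672 and 3.02 RPKM without stimulation, again highest in replicate 3, and rose to 7.03 ± 0.650 RPKM (1.91, adjusted p 0.0027 in limma). Slc6a6, the taurine carrier, completed those that rose, from 19.8 to 32.3 RPKM, and Slc16a10 and Slc38a10 did not pass. These last genes, and those named below as completing a count or as also among it, were chosen after their values were seen.

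Of 9 lysosomal transporters tested, none rose, 7 fell and 2 did not pass, with a median of -0.63. Quantile normalisation gave 2 higher and 4 lower with a median of -0.16. Slc36a1 (PAT1) fell from 7.80 to 1.68 RPKM and Ctns, which exports cystine, from 5.05 to 1.62. Slc38a9, through which the lysosome reports arginine to mTORC1, fell from 5.26 to 1.74 RPKM (log2 change -1.19), and Slc15a4 from 9.68 to 3.84 (-1.14). Slc36a4 and Slc15a3 completed the list as the pair that did not pass.

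The 38 genes of mTORC1 and amino acid sensing that were tested had no common direction, at 11 higher, 13 lower and 14 not past the test, with a median of -0.03. Centring on the median gave 19 higher and 7 lower with a median of 0.23. Gatsl3, an arginine sensor now called Castor1, rose from 4.18 ± 0.534 to 25.1 ± 2.09 RPKM, and the leucine sensor Sesn2 from 4.86 to 25.03. Lars, the leucyl-tRNA synthetase, rose from 15.6 to 69.3 RPKM. Sesn1, a relative of Sesn2, fell from 24.3 to 5.21 RPKM (log2 change -2.02).

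Genes of the GCN2 and ATF4 response mostly rose, at 10 higher and 1 lower of 11 tested, with a median of 1.52. Atf4 itself went from 102.3 ± 4.61 to 296 ± 19.2 RPKM, and Cth, which entered the test through its stimulated libraries alone, from 0.118 to 18.5 RPKM (log2 change 4.12). Asns, the asparagine synthetase, read 3.42, 4.80 and 12.7 RPKM without stimulation and rose to 110.4 ± 4.94 RPKM. Chac1, which degrades glutathione, rose from 1.25 to 16.2 RPKM. Ppp1r15a, a phosphatase subunit that reverses the block of translation, was the gene that fell, from 62.1 to 5.17 RPKM (-3.35).

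Of 19 enzymes that use imported amino acids, 11 rose, 5 fell and 3 did not pass, with a median of 0.55. Median centring gave 11 higher and 2 lower, and 3 fell without stimulated replicate 1, stimulated replicate 3 or unstimulated replicate 2. Bcat1, which starts the breakdown of leucine, rose from 0.139 to 14.4 RPKM, Gpt2 from 0.220 to 13.5 and Got1 from 8.32 to 47.8. Arg2, an arginase, fell from 3.74 to 0.0316 RPKM. Bcat1 and Gpt2 entered the test through the stimulated libraries alone, and Arg2 through the unstimulated ones alone. Glul, the glutamine synthetase (29.2 to 14.3 RPKM), Gclc (14.3 to 10.2) and Ass1 (28.04 to 23.95) were also among those that fell. The log2 change of Ass1 (-0.22) was smaller in size than the median of all genes (-0.24). Of 6 regulators of transporter genes or proteins, Myc rose from 30.4 ± 4.79 to 109 ± 2.13 RPKM (log2 change 1.82, adjusted p 1.1e-05 in limma) and 4 fell. Among those were Bach1, a repressor known to act on Slc7a11 (15.6 to 2.01 RPKM), the kinase Sgk1 (33.8 to 5.35) and the ubiquitin ligase Nedd4l (4.95 to 1.79), completed by Nfe2l2, the activator NRF2 (21.3 to 10.7).

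**Figure D5:**
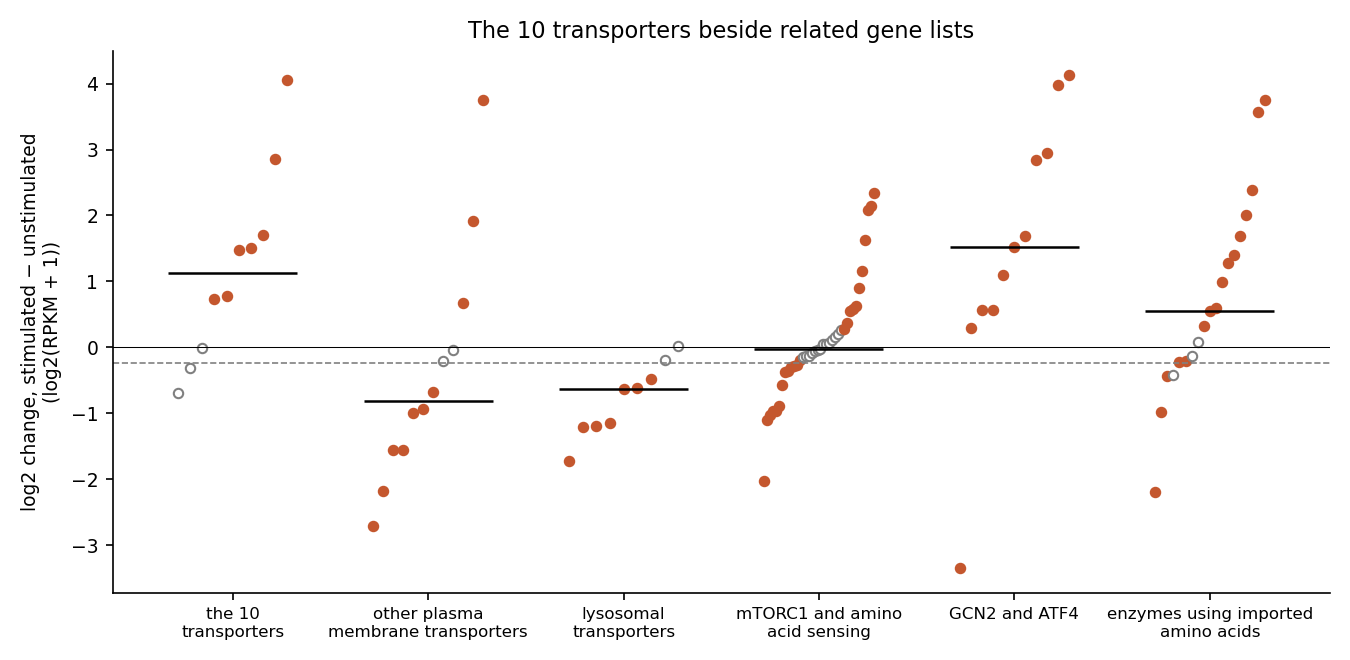
Log2 change of each tested gene on the log2(RPKM + 1) scale, for the members and the lists other than that of the regulators, which is not drawn. Filled points passed limma's test and open points did not, black lines are list medians, and the dashed line is the median of all genes (-0.24). The members (median 1.13) and the GCN2 and ATF4 genes (1.52) lie mostly above the dashed line, and the lysosomal transporters (-0.63) mostly below it.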

How the data were processed

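RNA-seq was analysed in 3 unstimulated and 3 stimulated libraries, in 2 deposited tables. Per the file headers, the first holds RPKM of both alleles together, made by the authors. Per the file headers, the second holds raw counts of reads assigned by the authors to the C57Bl/6 or Castaneus allele. STAR 2.7.1a, featureCounts and mm10 are named in the submitters' processing notes. The annotation, the strand setting, the RPKM denominator and the way alleles were assigned are not stated in the sources used here, so reads of overlapping genes, and of alleles that map unequally, could shift levels and shares. Libraries were made from total RNA with a stranded kit that depletes ribosomal RNA, per the labels.

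RPKM values were tested with limma 3.58.1 under R 4.3.3, as two-sided moderated tests with a mean-variance trend of log2(RPKM + 1), keeping genes at 1 RPKM or more in at least 3 libraries. Allelic counts were tested with edgeR 4.0.16 (quasi-likelihood, TMM scaling, two-sided), with the library as a block in cast-against-mus and share tests, for genes with at least 30 allelic reads in each group. DESeq2 1.42.0 was an alternative, as were other scalings, pseudocounts, filters and leaving out each library. All p-values were Benjamini-Hochberg adjusted across every gene tested, and 0.05 was the threshold. Positions and gene types come from GENCODE M21, promoters from RefSeq (GRCm38.p6). The limma and edgeR tests were also run on simulated data.

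Some items are not reported here. Members and lists were chosen with earlier results of these data known. Within a list, the 4 genes with the largest change past the threshold were candidates for naming; the 3 nearest profiles of Slc7a5 and Slc3a2 were named. Same-numbered libraries of the 2 groups deviated together in log2 cast-to-mus ratios (correlations of 0.282, 0.298 and 0.182), and not in RPKM (0.00603, 0.0611 and 0.0908). The allelic tests reported are nevertheless those without pairing by replicate number, and the paired fit is an alternative. Library depth is 9.61 to 20.2 M (1000000) allelic reads, and p-values measure the spread between 3 libraries a group.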

Additional observations from a re-analysis of the deposited data

Results flagged for a closer look

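For 3 members the mus and cast alleles responded to stimulation by different amounts in edgeR's test of the interaction of allele and stimulation. The log2 ratio of cast to mus changed by 0.97 for Slc1a5, with every stimulated library (50.8% to 52.3% cast) above every unstimulated one (32.7% to 37.3%). It changed by -0.44 for Slc7a1, with every stimulated library (49.9% to 50.3%) below every unstimulated one (57.2% to 57.9%). It changed by 0.33 for Slc7a5, whose stimulated libraries (53.8% to 54.3%) lay above the unstimulated ones (46.6% to 52.1%).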

How the results depend on the processing

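The calls of 7 members on RPKM, and of Slc1a5, Slc7a1 and Slc7a5 for the share of cast reads, kept their side of the threshold under every alternative run. The direction of Slc38a2 turned on summed allelic counts, to 0.42 in edgeR and 0.39 in DESeq2, from -0.02 on RPKM. Every member had a higher log2 change on those counts in edgeR than on RPKM, and the cause was not tested. With ratios centred on the median autosomal gene, the members with a difference between alleles in stimulated cells numbered 4 and not 2, as Slc3a2 (0.11, adjusted p 0.024 in edgeR) and Slc7a11 (0.54, adjusted p 0.035) passed. In unstimulated cells that centring gave 5 and not 4, adding Slc3a2 (0.15, adjusted p 0.0062 in edgeR), and limma on the log2 ratio gave 5, adding Slc1a4 (-0.55, adjusted p 0.0477). Leaving out each library in turn gave 7 members higher on RPKM each time, and 0 to 1 lower (Slc7a11 without unstimulated replicate 1). It gave 2 to 3 members with differing alleles in stimulated and 4 to 6 in unstimulated cells, 7 to 9 members higher on the mus allele and 8 on the cast allele, and 3 with a changed share. The difference in the Slc7a5 to Slc3a2 ratio ran from 1.91 to 2.05, and that of the 6 light chains from 1.62 to 1.77. With the replicate block, 7 members were higher on RPKM and 3 had a changed share, and no member's call changed. Where alleles were paired by replicate number, the adjusted p for the changed share was 4.8e-18 for Slc1a5, 1.9e-08 for Slc7a1 and 7.7e-05 for Slc7a5 in edgeR. Depth limits the shares of Slc43a1 (8 to 39 reads per library) and Slc1a4 (44 to 62 reads per unstimulated library).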

Other observations

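Genes within 100 kb of Slc1a5, Slc7a1 and Slc7a5, picked after the allelic values of these members were seen, were read for their own cast shares. Only genes with at least 30 allelic reads in each group are counted, and not passing the test does not show that a share stayed the same. Of 5 such genes beside Slc1a5, 0 passed edgeR's test for a changed share. Ap2s1 went from 47.3% to 49.2% cast, Strn4 from 48.15% to 50.8% and Prkd2 from 48.8% to 46.9%, beside 35.1% to 51.3% for Slc1a5. Dact3 had 77 allelic reads in all. Beside Slc7a5, Klhdc4 went from 50.9% to 57.2% (adjusted p 0.148 in edgeR) and Banp from 46.8% to 47.6% (0.953), and BC048644 had 211 reads in all. The log2 ratio change of Klhdc4 was 0.37, beside 0.33 for Slc7a5. Beside Slc7a1, Mtus2 had 176 reads in all, went from 55.7% ± 32.7 to 14.6% ± 13.7 cast (SD) and did not pass (adjusted p 0.12 in edgeR).

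Among the X-linked transporters outside the members, Slc38a5 had 34, 52 and 234 allelic reads in unstimulated replicates 1, 2 and 3, with 0 from the cast allele in each. Taken as 3 counts of the total, a count of 0 allows cast shares of up to 8.82%, 5.77% and 1.28%. The upper bounds of the 95% exact interval were 10.3%, 6.85% and 1.56%. Beside Xist reads of 99.92% to 99.99% cast, these shares too are not read as a bias of the gene.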
